A study of Mus musculus with 40 samples.

Results

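The amygdala levels of 34 genes enriched in mouse astrocytes were described in 40 RNA-seq libraries. The genes were picked by symbol as rows of a count table that lists 43629 genes, with Ensembl identifiers translated to GRCm38 symbols, and all 34 were found. The mice were male Swiss Webster animals aged 10 weeks, and RNA came from the amygdala of the left hemisphere. Conventionally raised mice (CON), germ-free mice (GF) and mice born germ-free that were moved to the standard unit after weaning and kept on bedding used by CON mice (exGF) were each studied naïve or 1 hr after a social interaction test with an unfamiliar conventional mouse and an object in a divided arena (the suffix SI marks the latter). The naïve groups held 4 libraries each, every one from pooled RNA of 2 animals by the study's methods and of up to 3 by the labels, and the SI groups held 8 CON-SI, 12 GF-SI and 8 exGF-SI libraries from single mice. Pooling and social interaction therefore cannot be told apart, and the breeding pairs of the CON mice were not those of the germ-free-born mice.

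Astrocytes clear glutamate and potassium from around synapses, couple to each other through gap junctions, line blood vessels with end feet rich in water channels, and secrete lipoproteins and matrix proteins. Their genes include transporters, connexins, metabolic enzymes, receptors and the filament protein GFAP, and several are used as markers of this cell type in every brain region. In bulk tissue, fewer astrocytes and less RNA of these genes per astrocyte cannot be told apart.

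The libraries held 7291810 to 19961958 counts. Levels are given as CPM, a gene's count scaled to the library's total after TMM scaling (a correction for differences in library composition). The ribosomal RNA gene Gm42418 took over 5% of the counts in 5 libraries (exGF-S7 of the SI groups and, of the naïve pools, P1 and P3 of CON and P1 and P2 of exGF) and at most 1.75% in the others. Ttr, the defining transcript of the choroid plexus that lies near the dissected tissue, was above 100 CPM in 6 libraries (CON-P2, GF-S8, GF-S12, exGF-S4, exGF-S7 and exGF-S9). A call that was not made without either set is given both ways. Comparisons share groups with each other, so their values are set side by side and are not independent.

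All 34 genes were detected in all 40 libraries, with a lowest raw count of 40 (Ranbp3l), and all passed the filter on low counts in every comparison. Per kilobase of exonic length, the scale on which levels of different genes were ordered, Apoe, the main lipid carrier secreted by astrocytes, was highest with a mean of 616 CPM per kilobase over the 40 libraries. It was followed by Glul, the enzyme that turns glutamate into glutamine (326 CPM per kilobase), and by Slc1a2, the main glutamate transporter (193 CPM per kilobase). Clu, a secreted chaperone, and Aldoc, the brain form of aldolase, were next to each other at 159 and 157 CPM per kilobase. Timp4, Slc7a2, Cbs and Ranbp3l were lowest, from 1.99 down to 1.25 CPM per kilobase. The defining markers Gfap, S100b, Aqp4 and Aldh1l1 lay between, at 37.02, 42.9, 30.4 and 10.5 CPM per kilobase, and none was at 0 in any library.

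**Figure D1:**
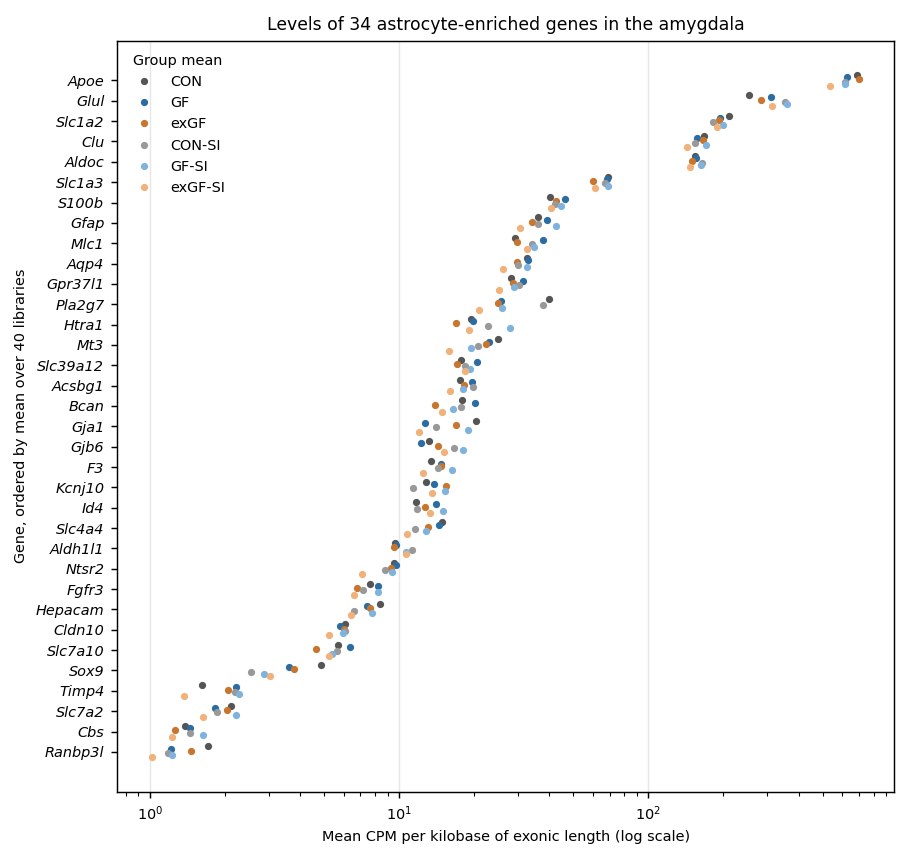
Mean level of each of the 34 genes in each of the 6 groups, as CPM per kilobase of exonic length on a log axis, with genes ordered by their mean over 40 libraries. Apoe stands highest and Ranbp3l lowest, and Pla2g7 shows the CON and CON-SI means apart from the germ-free-born groups.

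Differences were tested by edgeR across all genes, and a gene was called where its adjusted p was at most 0.1, the study's threshold. In the pairwise comparisons 16 of the 34 genes were called at least once, and 20 were called when the averages over groups were added. Within each colonisation state social interaction changed few of them, and Mt3 was the one called in all 3 states. In CON-SI against CON 3 were called (Glul higher, Mt3 and Slc4a4 lower), where 3.72% of all genes tested were called. In GF-SI against GF 4 were called (Gjb6 and Htra1 higher, Mt3 and Bcan lower), where 13.7% of all genes were. In exGF-SI against exGF 5 were called, all lower (Apoe, Ntsr2, Timp4, Slc7a2 and Mt3), where 3.01% of all genes were called lower and 7.61% in either direction. None of the 34 was called between naïve groups, where the calls over all genes came to 0.142% (GF against CON), 0.104% (exGF against CON) and 0% (exGF against GF). In these pairs 7, 4 and 6 of the 34 had an unadjusted edgeR p under 0.05, counts without a share over all genes to set beside them. DESeq2 called 3 of the 34 and 155 of all genes in the first of these naïve comparisons, 0 and 60 in the second, and 2 and 72 in the third.

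The SI groups, which hold 8 to 12 libraries where the naïve groups hold 4, were compared next. GF-SI against CON-SI had 2 called (Pla2g7 lower, Id4 higher) against 1.1% of all genes, and exGF-SI against CON-SI had 5 called, all lower (Pla2g7, Timp4, Mt3, Acsbg1 and Gpr37l1), against 0.462% of all genes called lower and 1.31% in either direction. In exGF-SI against GF-SI 6 were called, all lower (Htra1, Timp4, Slc7a2, Cbs, Ntsr2 and F3), where 0.0863% of all genes were called lower and 15 genes of 15068 (0.0995%) in either direction. Averaged over the 3 colonisation states, SI against naïve had 11 called, 4 higher and 7 lower, against 26.7% of all genes, a share close to that of the list. The 3 tests of whether the response to social interaction differed between colonisation states called none of the 34, where 0.0931%, 0% and 0% of all genes were called for GF minus CON, exGF minus CON and exGF minus GF.

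**Figure D2:**
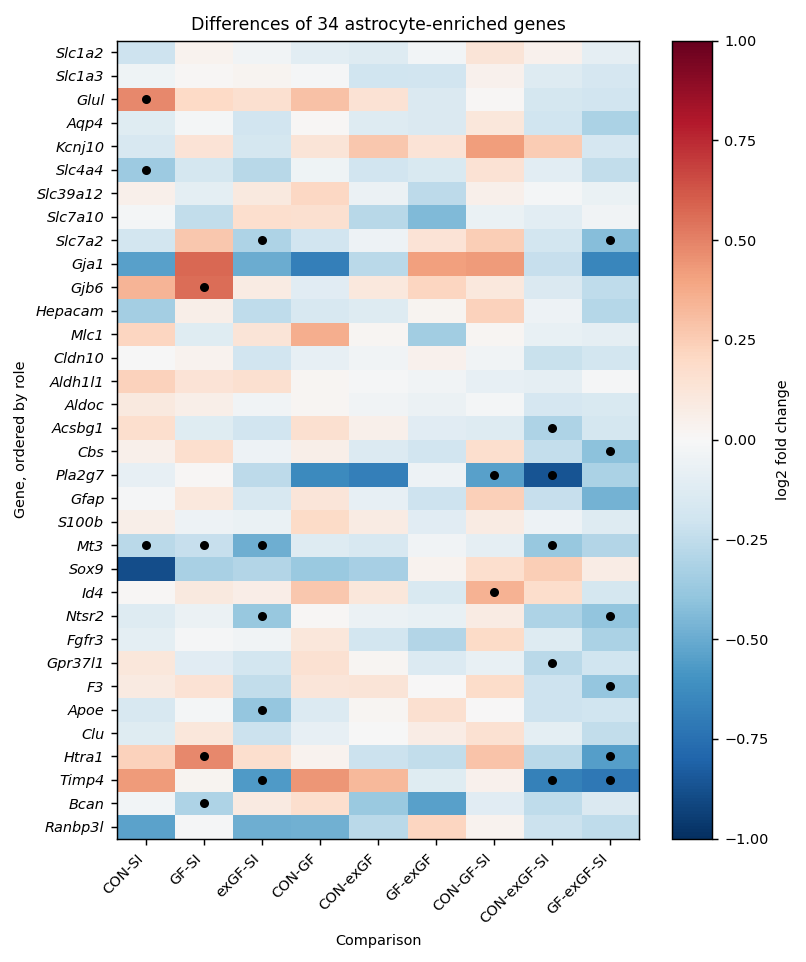
Log2 fold change of each of the 34 genes (rows, ordered by role) in the 9 pairwise comparisons (columns, second named group over the first, where a column named for a single SI group stands for SI over naïve), with a black dot where the gene was called at an edgeR adjusted p of at most 0.1. No dot lies in the 3 naïve columns, and in the last column 33 of the 34 genes are below 0.

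Among the genes of glutamate uptake and recycling, Glul was the gene that moved. Its CPM was 792, 842, 908 and 832 in CON and 1024 to 1514 with a median of 1151 in CON-SI. All 8 CON-SI libraries lay above the highest CON library (log2 fold change 0.48 ± 0.10 SE, edgeR adjusted p = 0.033), a call lost without CON-P1 or CON-P2 (edgeR adjusted p up to 0.104), and not made without the Ttr-rich libraries (log2 fold change 0.47, edgeR adjusted p = 0.104). Without the 2 CON libraries rich in ribosomal RNA the size was kept and the call was not (log2 fold change 0.50 ± 0.14 SE, edgeR adjusted p = 0.22). Naïve GF libraries were already at 936, 1111, 993 and 1093 CPM and exGF libraries at 865, 1095, 909 and 875 CPM, and GF-SI and exGF-SI libraries ran at 892 to 1466 with a median of 1191 and at 912 to 1198 with a median of 1050.4 CPM. Over the 3 colonisation states Glul rose with social interaction (log2 fold change 0.28 ± 0.06 SE, edgeR adjusted p = 0.0013), a call kept in all 40 fits that left out 1 library. The transporters Slc1a2 and Slc1a3 were called in no comparison. Slc1a3 had its lowest p in exGF against GF averaged over naïve and SI (log2 fold change -0.18 ± 0.05 SE, edgeR adjusted p = 0.24).

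Of the channels and ion transporters, Slc4a4, which carries sodium and bicarbonate and so buffers extracellular pH, was 194, 134, 156 and 161 CPM in CON and 110.1 to 137 with a median of 124 CPM in CON-SI. All but 1 of the 8 CON-SI libraries lay below the lowest CON library (log2 fold change -0.36 ± 0.09 SE, edgeR adjusted p = 0.058), a call lost without CON-P1, CON-P3 or CON-P4 (edgeR adjusted p up to 0.18). CON-P1, the highest, and CON-P3 are rich in ribosomal RNA, and without them the difference was smaller (log2 fold change -0.23 ± 0.10 SE, edgeR adjusted p = 0.41). Averaged over the colonisation states, Slc4a4 fell with social interaction both with these libraries (log2 fold change -0.27 ± 0.06 SE, edgeR adjusted p = 0.0021) and without all 5 such libraries (log2 fold change -0.23 ± 0.07 SE, edgeR adjusted p = 0.029). Aqp4, the water channel of astrocyte end feet, Kcnj10, their potassium channel, and the zinc transporter Slc39a12 were not called. Aqp4 ran at 155 to 265 with a median of 202 CPM in GF-SI and 119 to 207 with a median of 169 CPM in exGF-SI, ranges that overlap (log2 fold change -0.31 ± 0.10 SE, edgeR adjusted p = 0.21).

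The cationic amino acid transporter Slc7a2 (chromosome 8, 40862396 to 40922308, plus strand, GRCm38) was 16.6 to 25.3 with a median of 19.5 CPM in GF-SI and 12.5 to 17.7 with a median of 15.04 CPM in exGF-SI. Of the 8 exGF-SI libraries 7 lay below the lowest GF-SI library (log2 fold change -0.43 ± 0.09 SE, edgeR adjusted p = 0.072), a call lost in 13 of 20 fits that left out 1 library (edgeR adjusted p up to 0.18), and not made without the Ttr-rich libraries (log2 fold change -0.44, edgeR adjusted p = 0.23). Naïve exGF libraries were at 19.1, 20.02, 15.9 and 19.4 CPM, and 7 of the 8 exGF-SI libraries were below the lowest of them (log2 fold change -0.31 ± 0.09 SE, edgeR adjusted p = 0.085), a call lost in 8 of 12 fits that left out 1 library (edgeR adjusted p up to 0.24), and not made without the Ttr-rich libraries (log2 fold change -0.32, edgeR adjusted p = 0.13). That second difference was smaller without the libraries rich in ribosomal RNA (log2 fold change -0.24 ± 0.13 SE, edgeR adjusted p = 0.4). Part of Slc7a2 (7.0% of its exonic length) lies over a gene on the opposite strand, Gm26584, whose reads the strandless counting could not tell apart. The mean of Gm26584 was at most 0.018 CPM in any group. Slc7a10, which carries small neutral amino acids such as serine and glycine, was not called in any comparison. Its lowest p was in naïve exGF against GF (log2 fold change -0.44 ± 0.15 SE, edgeR adjusted p = 0.46), with 14.7, 14.5, 11.4 and 13.1 CPM in GF and 8.14, 8.45, 10.01 and 12.5 CPM in exGF. A gene on the opposite strand, Lrp3, overlaps 17.9% of the exonic length of Slc7a10. The mean of Lrp3 was 48.2 CPM in GF and 42.04 CPM in exGF (log2 fold change -0.20 ± 0.08 SE, edgeR adjusted p = 0.49). The part of Lrp3 reads in the Slc7a10 counts was not tested.

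Of the genes of gap junctions and adhesion, Gjb6, which encodes connexin 30, rose with social interaction in GF mice. Its CPM was 33.6, 30.9, 27.9 and 38.1 in GF and 39.5 to 60.9 with a median of 47.6 in GF-SI. The 12 GF-SI libraries all lay above the highest GF library (log2 fold change 0.56 ± 0.10 SE, edgeR adjusted p = 0.0044), a call kept in all 16 fits that left out 1 library and in all 6 other alternatives run. The values side by side were log2 fold change 0.34 ± 0.17 SE, edgeR adjusted p = 0.33 in CON mice and log2 fold change 0.08 ± 0.13 SE, edgeR adjusted p = 0.76 in exGF mice, and the response did not pass the test of a difference for GF minus CON (log2 fold change 0.22 ± 0.20 SE, edgeR adjusted p = 0.62) or exGF minus GF (log2 fold change -0.47 ± 0.20 SE, edgeR adjusted p = 0.34). The average over the 3 states was called (log2 fold change 0.33 ± 0.08 SE, edgeR adjusted p = 0.0039). Gja1, which encodes connexin 43, had wider groups and no call. It was 253, 192, 199 and 192 CPM in CON, 169, 110.3, 70.7 and 169 CPM in GF and 110.1 to 242 with a median of 204 CPM in GF-SI, while exGF-SI libraries were 78.3 to 185 with a median of 109 CPM. Its lowest p was in exGF-SI against GF-SI (log2 fold change -0.65 ± 0.16 SE, edgeR adjusted p = 0.13). Hepacam, an adhesion protein that binds connexins and MLC1, was lower after social interaction over the 3 states (log2 fold change -0.18 ± 0.07 SE, edgeR adjusted p = 0.089), a call lost in 19 of 40 fits that left out 1 library (edgeR adjusted p up to 0.32). Without the 5 libraries rich in ribosomal RNA it was not called (log2 fold change -0.14 ± 0.09 SE, edgeR adjusted p = 0.31). Mlc1 and Cldn10 were called nowhere. Mlc1, a membrane protein of the end feet, was 81.7, 75.1, 88.2 and 83.1 CPM in CON and 103, 112, 115 and 93.1 CPM in GF, groups that did not overlap but whose difference missed the threshold over all genes (log2 fold change 0.36 ± 0.09 SE, edgeR adjusted p = 0.26).

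Among the enzymes, Pla2g7 was the gene of the list that differed most firmly with colonisation at birth. It lies on chromosome 17, 43568098 to 43612201, plus strand (GRCm38), and encodes a secreted phospholipase A2 that hydrolyses platelet-activating factor and oxidised phospholipids. Its CPM was 141, 67.8, 122 and 134 in CON, 71.2, 83.02, 68.1 and 76.3 in GF and 78.01, 55.8, 65.4 and 89.6 in exGF. In 3 of the 4 CON libraries it was above every GF and exGF library, and the exception was CON-P2, one of the Ttr-rich libraries. The lowest CON-SI library, CON-S6 at 69.8 CPM, was not Ttr-rich. CON-SI libraries were 69.8 to 132 with a median of 115 CPM, GF-SI libraries 55.2 to 91.4 with a median of 79.4 CPM and exGF-SI libraries 48.8 to 75.2 with a median of 59.1 CPM. Every GF-SI and every exGF-SI library lay below the CON-SI median.

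Against CON-SI, Pla2g7 was lower in GF-SI (log2 fold change -0.54 ± 0.12 SE, edgeR adjusted p = 0.044), a call lost without CON-S3 (edgeR adjusted p up to 0.103), and not made without the Ttr-rich libraries (log2 fold change -0.50, edgeR adjusted p = 0.11). It was lower in exGF-SI too, where 6 of 8 libraries lay below the lowest CON-SI library (log2 fold change -0.86 ± 0.12 SE, edgeR adjusted p = 0.0041), a call kept in all 16 fits that left out 1 library. In naïve mice neither difference passed the threshold, with log2 fold change -0.64 ± 0.18 SE, edgeR adjusted p = 0.31 for GF and log2 fold change -0.68 ± 0.21 SE, edgeR adjusted p = 0.61 for exGF against CON. Averaged over the 4 groups born germ-free against the 2 conventional ones, the difference was called (log2 fold change -0.68 ± 0.10 SE, edgeR adjusted p = 3.2e-05), a call kept in all 40 fits that left out 1 library, beside 0.683% of all genes called lower and 1.45% in either direction. It remained called without the libraries rich in ribosomal RNA (log2 fold change -0.56 ± 0.12 SE, edgeR adjusted p = 0.029) and without those rich in Ttr (log2 fold change -0.75 ± 0.09 SE, edgeR adjusted p = 8.5e-06). An opposite-strand gene, 1700071M16Rik, overlaps 319 of its 2905 exonic bases, and its mean was at most 0.096 CPM in any group.

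The acyl-CoA synthetase Acsbg1 was 63.2 to 83.9 with a median of 69.4 CPM in CON-SI and 52.4 to 64.6 with a median of 57.9 CPM in exGF-SI, where 7 of 8 libraries lay below the lowest CON-SI library (log2 fold change -0.31 ± 0.07 SE, edgeR adjusted p = 0.049), a call lost without exGF-S10 (edgeR adjusted p up to 0.1001), and not made without the Ttr-rich libraries (log2 fold change -0.31, edgeR adjusted p = 0.14). Cbs (chromosome 17, 31608894 to 31637238, minus strand), which makes cystathionine from homocysteine and serine, was 9.98 to 14.3 with a median of 12.2 CPM in GF-SI and 7.77 to 10.9 with a median of 9.49 CPM in exGF-SI. All 8 exGF-SI libraries were below the GF-SI median and 4 below the lowest GF-SI library (log2 fold change -0.41 ± 0.08 SE, edgeR adjusted p = 0.072), a call lost in 10 of 20 fits that left out 1 library (edgeR adjusted p up to 0.18), and not made without the Ttr-rich libraries (log2 fold change -0.41, edgeR adjusted p = 0.23). Aldh1l1, a folate enzyme used as a marker of astrocytes as a whole, was slightly higher after social interaction over the 3 states (log2 fold change 0.18 ± 0.07 SE, edgeR adjusted p = 0.06), a call lost without CON-P2, exGF-P2 or exGF-P3 (edgeR adjusted p up to 0.15), and not made without the Ttr-rich libraries (log2 fold change 0.14, edgeR adjusted p = 0.2). No single colonisation state gave a call for it. It shares 13.4% of its exonic length with other genes. Aldoc was not called, and its lowest adjusted p was in exGF-SI against CON-SI (log2 fold change -0.17 ± 0.07 SE, edgeR adjusted p = 0.29).

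**Figure D3:**
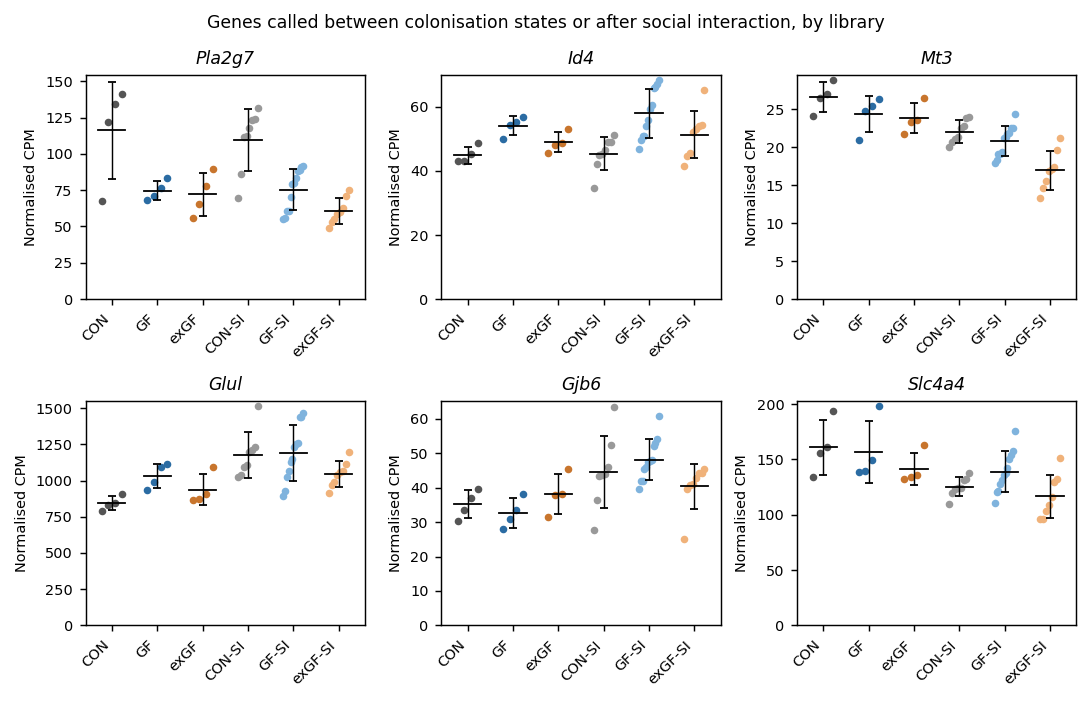
CPM of Pla2g7, Id4, Mt3, Glul, Gjb6 and Slc4a4 in each library (points) of the 6 groups, with the group mean (line) and SD (bars), n = 4 naïve libraries a group and 8, 12 and 8 SI libraries. Pla2g7 lies lower in the 4 germ-free-born groups than in CON and CON-SI, and Mt3 lies lower in each SI group than in its naïve group.

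Mt3 (chromosome 8, 94152607 to 94154146, plus strand), a metallothionein of the brain that binds zinc and copper, was the one member called lower after social interaction in each of the 3 colonisation states. It was 26.999, 26.4, 28.8 and 24.05 CPM in CON and 20.02 to 23.99 with a median of 21.9 CPM in CON-SI, and the 2 groups did not overlap (log2 fold change -0.27 ± 0.08 SE, edgeR adjusted p = 0.094), a call lost in 9 of 12 fits that left out 1 library (edgeR adjusted p up to 0.24), and not made without the libraries rich in ribosomal RNA (log2 fold change -0.19, edgeR adjusted p = 0.5) or without the Ttr-rich libraries (log2 fold change -0.28, edgeR adjusted p = 0.2). It was 25.4, 24.7, 26.4 and 20.9 CPM in GF and 17.9 to 24.4 with a median of 21.3 CPM in GF-SI, where the groups overlapped (log2 fold change -0.23 ± 0.08 SE, edgeR adjusted p = 0.095), a call lost in 10 of 16 fits that left out 1 library (edgeR adjusted p up to 0.31), and not made without the Ttr-rich libraries (log2 fold change -0.21, edgeR adjusted p = 0.17). It was 21.8, 26.5, 23.3 and 23.6 CPM in exGF and 13.3 to 21.2 with a median of 16.9 CPM in exGF-SI, again with no overlap (log2 fold change -0.49 ± 0.11 SE, edgeR adjusted p = 0.035), a call lost without exGF-P2 or exGF-P4 (edgeR adjusted p up to 0.13), and not made without the libraries rich in ribosomal RNA (log2 fold change -0.50, edgeR adjusted p = 0.15). Averaged over the 3 states it had its lowest p (log2 fold change -0.33 ± 0.05 SE, edgeR adjusted p = 1.3e-05), a call kept in all 40 fits that left out 1 library and in all 5 other alternatives run.

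Mt3 was also lower in exGF-SI than in CON-SI, with 7 of 8 exGF-SI libraries below the lowest CON-SI library (log2 fold change -0.38 ± 0.09 SE, edgeR adjusted p = 0.053), a call lost without CON-S10, exGF-S10 or exGF-S6 (edgeR adjusted p up to 0.12). Its neighbours on chromosome 8, the stress-inducible metallothioneins Mt1 and Mt2, were added after values were seen and did not pass the test. Over the 3 states Mt1 had a log2 fold change -0.10 ± 0.12 SE, edgeR adjusted p = 0.61, and Mt2 had a log2 fold change -0.02 ± 0.14 SE, edgeR adjusted p = 0.95. The other 2 genes of this group, Gfap and the calcium-binding protein S100b, were called nowhere. Gfap ran at 148 to 227 with a median of 176 CPM in GF-SI and 85.2 to 185 with a median of 121 CPM in exGF-SI (log2 fold change -0.47 ± 0.12 SE, edgeR adjusted p = 0.14), and both genes lie within or across genes on the opposite strand.

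Of the 2 transcription regulators, Id4, an inhibitor of bHLH factors expressed in astrocytes, was higher in GF-SI than in CON-SI and in the average of the groups born germ-free. Its CPM was 43.02, 48.6, 42.99 and 45.2 in CON, 54.4, 49.97, 56.9 and 55.4 in GF and 48.2, 53.2, 48.7 and 45.6 in exGF. It was 34.6 to 51.2 with a median of 45.9 in CON-SI, 46.9 to 68.4 with a median of 57.7 in GF-SI and 41.7 to 65.1 with a median of 52.7 in exGF-SI. The 4 GF libraries lay above all 4 CON libraries without a call (log2 fold change 0.27 ± 0.08 SE, edgeR adjusted p = 0.31). In GF-SI 8 of 12 libraries lay above the highest CON-SI library (log2 fold change 0.35 ± 0.08 SE, edgeR adjusted p = 0.052), a call lost without CON-S11, CON-S3 or CON-S5 (edgeR adjusted p up to 0.12), and not made without the Ttr-rich libraries (log2 fold change 0.35, edgeR adjusted p = 0.101). The exGF groups overlapped the conventional ones and gave no call. Naïve exGF had 2 of 4 libraries above the highest CON library (log2 fold change 0.11 ± 0.08 SE, edgeR adjusted p = 0.94). Of the 8 exGF-SI libraries 5 lay above the highest CON-SI library and 3 below the CON-SI median (log2 fold change 0.18 ± 0.09 SE, edgeR adjusted p = 0.4). Over the 4 germ-free-born groups Id4 was called (log2 fold change 0.23 ± 0.06 SE, edgeR adjusted p = 0.064), a call lost in 6 of 40 fits that left out 1 library (edgeR adjusted p up to 0.19), and not made without the libraries rich in ribosomal RNA (log2 fold change 0.18, edgeR adjusted p = 0.65). Genes on the opposite strand share 6.6% of its exonic length.

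Sox9, a factor needed for the astrocyte fate, was 37.6, 13.3, 17.6 and 12.1 CPM in CON, 26.5, 18.2, 10.5 and 7.82 CPM in exGF and 7.13 to 14.00 with a median of 10.2 CPM in CON-SI. The 2 highest of the 40 libraries were CON-P1 and exGF-P1, both rich in ribosomal RNA. Its fall over the 3 states (log2 fold change -0.50 ± 0.15 SE, edgeR adjusted p = 0.015) was nearly gone without the 5 libraries rich in ribosomal RNA (log2 fold change -0.07 ± 0.14 SE, edgeR adjusted p = 0.78).

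Of the receptors, Ntsr2 (chromosome 12, 16653382 to 16660227, plus strand), a receptor for neurotensin found mainly on astrocytes, was 27.7, 29.97, 25.9 and 32.1 CPM in exGF, 24.9 to 34.4 with a median of 29.1 CPM in GF-SI and 17.6 to 27.8 with a median of 21.6 CPM in exGF-SI. Of the 8 exGF-SI libraries 6 were below the lowest GF-SI library (log2 fold change -0.39 ± 0.08 SE, edgeR adjusted p = 0.082), a call lost in 13 of 20 fits that left out 1 library (edgeR adjusted p up to 0.2), and not made without the Ttr-rich libraries (log2 fold change -0.40, edgeR adjusted p = 0.22). Against naïve exGF the same 8 libraries were lower by a like size (log2 fold change -0.38 ± 0.12 SE, edgeR adjusted p = 0.089), a call lost in 10 of 12 fits that left out 1 library (edgeR adjusted p up to 0.26), and not made without the libraries rich in ribosomal RNA (log2 fold change -0.37, edgeR adjusted p = 0.32) or without the Ttr-rich libraries (log2 fold change -0.36, edgeR adjusted p = 0.13). F3 (chromosome 3, 121723537 to 121735048, plus strand), tissue factor, the receptor that starts coagulation, was 33.2 to 48.01 with a median of 40.9 CPM in GF-SI and 23.5 to 38.01 with a median of 31.1 CPM in exGF-SI, with 5 of 8 exGF-SI libraries below the lowest GF-SI library (log2 fold change -0.39 ± 0.08 SE, edgeR adjusted p = 0.074), a call lost in 12 of 20 fits that left out 1 library (edgeR adjusted p up to 0.18), and not made without the Ttr-rich libraries (log2 fold change -0.34, edgeR adjusted p = 0.23).

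The orphan receptor Gpr37l1 was 60.9 to 78.5 with a median of 66.6 CPM in CON-SI and 50.3 to 67.8 with a median of 56.5 CPM in exGF-SI (log2 fold change -0.27 ± 0.07 SE, edgeR adjusted p = 0.085), a call lost in 11 of 16 fits that left out 1 library (edgeR adjusted p up to 0.17), and not made without the libraries rich in ribosomal RNA (log2 fold change -0.26, edgeR adjusted p = 0.12) or without the Ttr-rich libraries (log2 fold change -0.26, edgeR adjusted p = 0.22). Fgfr3, a receptor for fibroblast growth factors, was not called and came nearest in exGF-SI against GF-SI (log2 fold change -0.32 ± 0.08 SE, edgeR adjusted p = 0.12). Averaged over the 3 states, Ntsr2 was lower after social interaction (log2 fold change -0.19 ± 0.06 SE, edgeR adjusted p = 0.029), a call kept in all 40 fits that left out 1 library but not without the libraries rich in ribosomal RNA (log2 fold change -0.18 ± 0.08 SE, edgeR adjusted p = 0.101).

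Of the secreted and matrix proteins, Htra1 (chromosome 7, 130936111 to 130985660, plus strand), a serine protease that cleaves matrix proteins, moved both with social interaction and with colonisation. Its CPM was 57.5, 51.5, 49.9 and 69.9 in GF and 60.9 to 106 with a median of 83.5 in GF-SI, where 10 of 12 libraries lay above the highest GF library (log2 fold change 0.48 ± 0.12 SE, edgeR adjusted p = 0.026), a call lost without GF-P2 or GF-P3 (edgeR adjusted p up to 0.12). It was 55.3, 41.3, 48.7 and 48.7 CPM in exGF and 43.8 to 71.8 with a median of 53.7 CPM in exGF-SI (log2 fold change 0.17 ± 0.12 SE, edgeR adjusted p = 0.41). The exGF-SI libraries all lay below the GF-SI median and 6 of 8 below the lowest GF-SI library (log2 fold change -0.55 ± 0.10 SE, edgeR adjusted p = 0.056), a call lost in 7 of 20 fits that left out 1 library (edgeR adjusted p up to 0.18), and not made without the Ttr-rich libraries (log2 fold change -0.59, edgeR adjusted p = 0.15). Averaged over the 3 states Htra1 rose with social interaction (log2 fold change 0.30 ± 0.07 SE, edgeR adjusted p = 0.0028), a call kept in all 40 fits that left out 1 library. Htra1 lies wholly inside an annotated Fgfr2 gene body on the opposite strand. Fgfr2 itself was called higher after social interaction over the 3 states (log2 fold change 0.50 ± 0.10 SE, edgeR adjusted p = 3.0e-04), in CON mice (log2 fold change 0.52 ± 0.14 SE, edgeR adjusted p = 0.071) and in exGF mice (log2 fold change 0.57 ± 0.16 SE, edgeR adjusted p = 0.069). In GF mice Fgfr2 was not called (log2 fold change 0.40 ± 0.17 SE, edgeR adjusted p = 0.15), nor in exGF-SI against GF-SI (log2 fold change 0.06 ± 0.13 SE, edgeR adjusted p = 0.89). The annotated exons of both genes share no base, but counting without strand would give Htra1 any unspliced Fgfr2 read that falls on its exons, and the part of such reads was not tested.

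Timp4 (chromosome 6, 115241892 to 115252205, minus strand), an inhibitor of matrix metalloproteinases, was 12.8, 12.7, 10.8 and 12.3 CPM in exGF and 4.63 to 10.4 with a median of 8.31 CPM in exGF-SI. The 2 groups did not overlap (log2 fold change -0.57 ± 0.17 SE, edgeR adjusted p = 0.075), a call lost in 5 of 12 fits that left out 1 library (edgeR adjusted p up to 0.2), and not made without the libraries rich in ribosomal RNA (log2 fold change -0.47, edgeR adjusted p = 0.37). CON-SI libraries were 9.88 to 17.9 with a median of 11.9 CPM and GF-SI libraries 7.32 to 17.00 with a median of 13.9 CPM. The 8 exGF-SI libraries all lay below both medians. Against CON-SI Timp4 was lower (log2 fold change -0.67 ± 0.16 SE, edgeR adjusted p = 0.071), a call lost in 8 of 16 fits that left out 1 library (edgeR adjusted p up to 0.14), and not made without the libraries rich in ribosomal RNA (log2 fold change -0.64, edgeR adjusted p = 0.101) or without the Ttr-rich libraries (log2 fold change -0.70, edgeR adjusted p = 0.15). Against GF-SI it was lower as well (log2 fold change -0.71 ± 0.14 SE, edgeR adjusted p = 0.074), a call lost in 13 of 20 fits that left out 1 library (edgeR adjusted p up to 0.18), and not made without the Ttr-rich libraries (log2 fold change -0.82, edgeR adjusted p = 0.15). The gene lies inside the synaptic gene Syn2 on the opposite strand and shares 90 exonic bases with it. Syn2, with a mean of 429 CPM in GF-SI, had a log2 fold change -0.11 ± 0.10 SE, edgeR adjusted p = 0.69 in exGF-SI against GF-SI. Counting without strand would give Timp4 any unspliced Syn2 read that falls on its exons, and the part of such reads was not tested.

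Apoe was 1324, 1554, 1508 and 1597 CPM in exGF and 889 to 1314 with a median of 1154 CPM in exGF-SI, and all 8 exGF-SI libraries lay below the lowest exGF library (log2 fold change -0.39 ± 0.09 SE, edgeR adjusted p = 0.039), a call lost without exGF-P2 or exGF-P4 (edgeR adjusted p up to 0.14), and not made without the libraries rich in ribosomal RNA (log2 fold change -0.44, edgeR adjusted p = 0.12). The average over the 3 states was also lower (log2 fold change -0.19 ± 0.06 SE, edgeR adjusted p = 0.03), a call kept in all 40 fits that left out 1 library. Bcan, brevican, a proteoglycan of perineuronal matrix, was 86.2, 88.7, 79.9 and 74.5 CPM in GF and 54.8 to 76.6 with a median of 66.95 CPM in GF-SI, with 11 of 12 GF-SI libraries below the lowest GF library (log2 fold change -0.31 ± 0.08 SE, edgeR adjusted p = 0.021), a call lost without GF-P2 (edgeR adjusted p up to 0.101). Naïve exGF libraries had 49.3, 50.7, 58.99 and 67.4 CPM of Bcan, all below the GF libraries, and that difference missed the threshold over all genes (log2 fold change -0.54 ± 0.11 SE, edgeR adjusted p = 0.28). In exGF against GF averaged over naïve and SI, Bcan (log2 fold change -0.34 ± 0.07 SE, edgeR adjusted p = 0.07) and Htra1 (log2 fold change -0.40 ± 0.09 SE, edgeR adjusted p = 0.096) were both called lower, the only 2 genes of 16111 called lower there (0.0124%, with 0.0497% called in either direction). The call of Bcan was lost in 12 of 40 fits that left out 1 library (edgeR adjusted p up to 0.21), and not made without the libraries rich in ribosomal RNA (log2 fold change -0.24, edgeR adjusted p = 0.84) or without the Ttr-rich libraries (log2 fold change -0.31, edgeR adjusted p = 0.12). The call of Htra1 was lost in 26 of 40 fits that left out 1 library (edgeR adjusted p up to 0.33), and not made without the libraries rich in ribosomal RNA (log2 fold change -0.42, edgeR adjusted p = 0.35). Clu was not called, and Ranbp3l, a nuclear export factor and the lowest gene of the list, was lower after social interaction over the 3 states (log2 fold change -0.34 ± 0.15 SE, edgeR adjusted p = 0.094), a call lost in 29 of 40 fits that left out 1 library (edgeR adjusted p up to 0.23), and not made without the libraries rich in ribosomal RNA (log2 fold change -0.19, edgeR adjusted p = 0.51).

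The comparison in which the list moved most as a whole was exGF-SI against GF-SI. Of the 34 genes 33 had a fold change below 0, Sox9 being the exception, with a median log2 fold change of -0.22, and 23 had an unadjusted edgeR p under 0.05. Over all 15068 genes tested, 49.7% were below 0 and the median was 0.00, while their share with an unadjusted p under 0.05 was not taken. The 6 called genes had log2 fold changes from -0.71 (Timp4) to -0.39 (F3), and the 8 exGF-SI libraries lay below the GF-SI median for each. The count of called genes depended on single libraries: it ran from 0 to 11 when 1 of the 20 libraries was left out, and was 0 without any 1 of exGF-S10, exGF-S9, exGF-S4, exGF-S3, GF-S8, GF-S6 and GF-S4. DESeq2 called 13 of the 34 and 296 of all genes, and edgeR without the library rich in ribosomal RNA called 11 of the 34 and 120 of all genes. Most of the list was below 0 in other comparisons that hold exGF mice as well. In exGF against GF averaged over naïve and SI 33 of 34 were (median -0.16, 50.4% of all genes), and in exGF-SI against CON-SI 30 (median -0.18, 52.5%). In exGF-SI against exGF 24 were below 0 (median -0.18, 50.1% of all genes), and in naïve exGF against GF 23 (median -0.09, 51.8%).

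**Figure D4:**
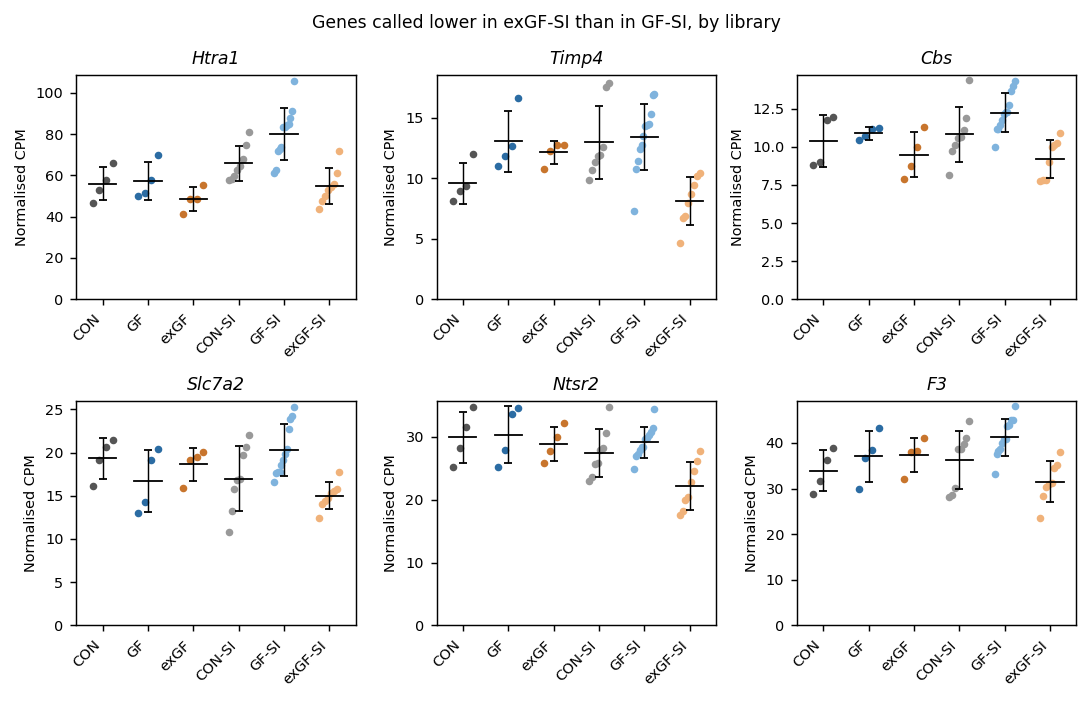
CPM of the 6 genes called lower in exGF-SI than in GF-SI, in each library (points) of the 6 groups, with the group mean (line) and SD (bars), n = 4 libraries in each naïve group and 8, 12 and 8 in the SI groups of CON, GF and exGF. In each panel the 8 exGF-SI points lie below the median of the GF-SI points.

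Because 6 members were lower together in exGF-SI, the promoter stretch of the 5 of them with a RefSeq entry is shown (GRCm38.p6, up to 250 bases before the RefSeq start, ended earlier where the gene annotation starts earlier). Matches on either strand to TTGGC (the short motif of nuclear factor I, a factor of astrocyte genes), ACAAT (the SOX core) or AGAACA (a short motif of the glucocorticoid receptor) are in capitals, a match on the other strand appearing as its reverse complement. The lines run 5′ to 3′ on the strand of the gene.
Htra1 (chr7:130935953-130936110, plus strand): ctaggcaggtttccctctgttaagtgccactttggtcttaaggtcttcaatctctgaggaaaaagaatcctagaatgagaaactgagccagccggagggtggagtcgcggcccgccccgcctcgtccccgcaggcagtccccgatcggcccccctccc
Timp4 (chr6:115252206-115252455, minus strand): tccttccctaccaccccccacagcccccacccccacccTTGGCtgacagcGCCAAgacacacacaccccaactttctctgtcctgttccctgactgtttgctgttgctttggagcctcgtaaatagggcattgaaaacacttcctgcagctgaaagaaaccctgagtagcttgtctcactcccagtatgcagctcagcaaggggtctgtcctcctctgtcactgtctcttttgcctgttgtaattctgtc
Cbs (chr17:31637239-31637455, minus strand): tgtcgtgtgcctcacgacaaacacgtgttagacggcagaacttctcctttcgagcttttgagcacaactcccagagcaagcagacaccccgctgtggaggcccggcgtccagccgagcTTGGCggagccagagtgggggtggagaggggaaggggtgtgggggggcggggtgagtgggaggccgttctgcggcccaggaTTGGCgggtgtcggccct
Ntsr2 (chr12:16653220-16653381, plus strand): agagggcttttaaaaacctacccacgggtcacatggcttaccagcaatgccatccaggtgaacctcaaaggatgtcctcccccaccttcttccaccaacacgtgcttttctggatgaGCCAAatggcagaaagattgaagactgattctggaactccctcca
F3 (chr3:121723287-121723536, plus strand): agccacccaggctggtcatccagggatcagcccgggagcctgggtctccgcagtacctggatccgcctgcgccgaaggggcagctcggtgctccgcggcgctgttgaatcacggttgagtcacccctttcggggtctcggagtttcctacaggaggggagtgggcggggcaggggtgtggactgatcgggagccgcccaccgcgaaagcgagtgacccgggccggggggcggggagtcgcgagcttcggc
In these stretches the nuclear factor I motif was found in Timp4 (2 matches), Cbs (2) and Ntsr2 (1), and neither other motif was found in any of the 5. Of the 30 members with an entry that was read, 15 held TTGGC, 5 ACAAT and 6 AGAACA in at least 1 window of 250 bases before the RefSeq start. Counted by window, these were 17, 5 and 6 of the members' 36 windows. Over all 32851 promoter windows of that length the shares were 41.5%, 27.7% and 16.1%. The windows are a description of sequence and hold no measurement of binding.

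Per library, the median over the 34 genes of the log2 level relative to each gene's mean over the 40 libraries was below 0 in all 8 exGF-SI libraries, from -0.34 to -0.01 with a median of -0.13. In GF-SI it ran from -0.01 to 0.19 with a median of 0.07, in CON-SI from -0.12 to 0.18, and in the naïve groups from -0.15 to 0.16. The lowest library was exGF-S4, in which all 34 genes were below their mean and Ttr was at 851 CPM. Ttr was above 100 CPM in 3 exGF-SI and 2 GF-SI libraries, and without these 5 none of the 34 genes was called and 1 of all genes, while the 6 genes had log2 fold changes from -0.82 to -0.34 and edgeR adjusted p values from 0.15 to 0.23. In order of Ttr, the medians over the list were -0.05 in exGF-S9 (1347 CPM), -0.01 in GF-S8 (897 CPM) and -0.34 in exGF-S4 (851 CPM). They were -0.08 in exGF-S7 (749 CPM) and 0.05 in GF-S12 (707 CPM). Whether Ttr content bears on the level of the list was not tested.

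Markers of other cell types were read in the same comparison. The choroid plexus and ependyma list had 7 of its 8 tested genes above 0 with a median log2 fold change of 0.61 and none called, led by Sostdc1 (log2 fold change 1.19 ± 0.71 SE, edgeR adjusted p = 0.49) and Ttr (log2 fold change 1.27 ± 0.93 SE, edgeR adjusted p = 0.59). Its summed level ran from 25.2 to 1022 CPM in GF-SI and from 31.2 to 1471 CPM in exGF-SI. The lists of microglia, oligodendrocytes, oligodendrocyte precursors, endothelium and pericytes, meninges, neurons, striatum and amygdala nuclei had no gene called. Genes below 0 were 9 of 12 microglial (median -0.13), 11 of 12 oligodendrocyte (-0.09), 4 of 5 precursor (-0.19) and 10 of 12 endothelial and pericyte genes (-0.14). They were 7 of 7 meningeal (-0.21), 8 of 12 neuronal (-0.08), 6 of 8 striatal (-0.21) and 5 of 6 amygdala nuclei genes (-0.22). The summed meningeal level ran from 519 to 1358 CPM in GF-SI and from 412 to 1219 CPM in exGF-SI, and the microglial one from 276 to 389.9 and from 265 to 320.4 CPM. The part of these tissues in the astrocyte difference was not tested.

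A list of 32 other astrocyte-enriched genes, which shares no member with the 34, had 28 of 32 below 0 in exGF-SI against GF-SI, with a median of -0.18 and none called. The lowest p values were those of Grin2c, an NMDA receptor subunit (log2 fold change -0.34 ± 0.09 SE, edgeR adjusted p = 0.14), Slc14a1, a urea transporter (log2 fold change -0.49 ± 0.13 SE, edgeR adjusted p = 0.14), Nwd1 (log2 fold change -0.24 ± 0.07 SE, edgeR adjusted p = 0.17) and the GABA transporter Slc6a11 (log2 fold change -0.32 ± 0.09 SE, edgeR adjusted p = 0.18). Of 22 genes that reactive astrocytes switch on 14 passed the filter there, with 4 above and 10 below 0, a median of -0.11 and none called. Of 12 genes of glycogen and lactate handling 4 were above and 8 below 0, with a median of -0.08 and none called.

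**Figure D5:**
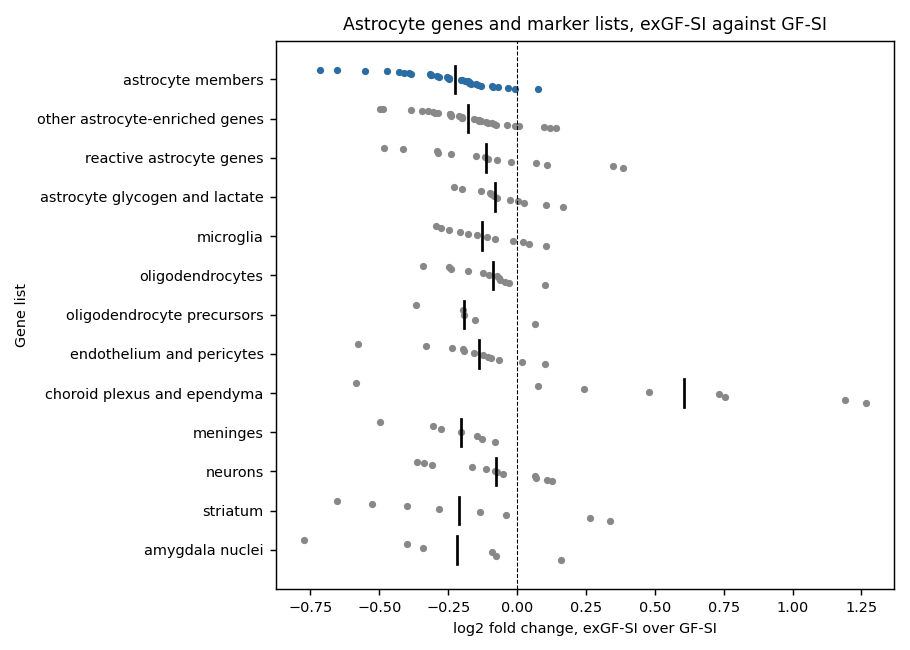
Log2 fold change of exGF-SI over GF-SI for each tested gene (points) of the 34 astrocyte genes and of 12 other gene lists, with the median of each list as a black bar and a dashed line at 0. The median is -0.22 for the astrocyte genes and for the amygdala nuclei, and -0.21 for meninges and for striatum. The choroid plexus and ependyma genes have a median of 0.61, the only one above 0.

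Across the 3 colonisation states, social interaction moved genes of these wider lists in both directions, beside 26.7% of all genes called there. Of the 32 other astrocyte-enriched genes 5 rose and 7 fell, among them Fam107a, an actin-binding protein induced by stress hormones (log2 fold change 0.62 ± 0.11 SE, edgeR adjusted p = 1.2e-04), Sdc4, a heparan sulphate proteoglycan (log2 fold change 0.38 ± 0.07 SE, edgeR adjusted p = 1.0e-04), Slc14a1 (log2 fold change -0.52 ± 0.10 SE, edgeR adjusted p = 2.8e-04) and Slc6a11 (log2 fold change -0.36 ± 0.09 SE, edgeR adjusted p = 0.0027). Of the glycogen and lactate genes 4 rose and 2 fell. Ppp1r3c, which targets a phosphatase to glycogen, rose most firmly (log2 fold change 0.90 ± 0.08 SE, edgeR adjusted p = 9.4e-11), followed by the glycolytic regulator Pfkfb3 (log2 fold change 0.47 ± 0.12 SE, edgeR adjusted p = 0.0054) and the glucose transporter Slc2a1 (log2 fold change 0.26 ± 0.09 SE, edgeR adjusted p = 0.034). The 2 that fell were among the other called genes of this list, Pygb, Gys1 and Pdk4. Of 16 tested reactive astrocyte genes 3 rose, the small heat shock protein Hspb1 (log2 fold change 0.95 ± 0.18 SE, edgeR adjusted p = 1.5e-04), H2-D1 (log2 fold change 0.39 ± 0.15 SE, edgeR adjusted p = 0.072) and Emp1 (log2 fold change 0.38 ± 0.15 SE, edgeR adjusted p = 0.076), while Gfap was not among the called genes (log2 fold change -0.02 ± 0.11 SE, edgeR adjusted p = 0.93).

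The response itself was compared between colonisation states in one fit over the 6 groups. For exGF minus GF, 27 of the 34 genes were below 0 with a median of -0.20, against 49.1% of all genes below 0 and a median of 0.01. None of the 34 was called, and 11 had an unadjusted edgeR p under 0.05, a count without a share over all genes beside it. Gja1 had the lowest p (log2 fold change -1.07 ± 0.36 SE, edgeR adjusted p = 0.27), then Slc7a2 (log2 fold change -0.58 ± 0.19 SE, edgeR adjusted p = 0.27). For exGF minus CON, Timp4 had the lowest p (log2 fold change -0.999 ± 0.26 SE, edgeR adjusted p = 0.72), its CON libraries being 9.36, 8.91, 8.10 and 11.99 CPM. For GF minus CON, Gja1 led again (log2 fold change 1.12 ± 0.36 SE, edgeR adjusted p = 0.13).

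The 34 genes also varied together within groups. Over the 40 libraries, after subtracting each group's mean log2 level, the median Pearson correlation over the 561 pairs of the 34 genes was 0.178, and 75.4% of the pairs were above 0. Over all pairs of tested genes the median was -0.002 and 49.6% were above 0. The highest pairs were Slc1a2 with Kcnj10 (r = 0.793), Aqp4 with Gfap (r = 0.747) and Gjb6 with Fgfr3 (r = 0.727). Gfap had the highest median correlation with the other members (0.359). The points share tissue pieces, depth and ribosomal RNA content, so these values are a description.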

How the data were processed

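RNA from the amygdala of 40 libraries was sequenced after ribosomal RNA depletion with a stranded kit. The authors trimmed reads with Trimmomatic 0.32, aligned them to GRCm38.p3 with STAR 2.4.0f1 and counted reads per gene of Ensembl 78 with HTSeq 0.6.0 without using strand, so reads of a gene and of a gene on the opposite strand at the same place cannot be told apart. The deposited values are whole-number raw counts per gene, 7291810 to 19961958 per library, of which 43629 genes are listed and no column was left out. GENCODE vM21 gave symbols, coordinates and exonic lengths for 42462 identifiers. Columns carry the group and a number of their own, so libraries are named by that number (P for naïve pools, S for single mice of the SI groups).

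Each pair of groups was fitted on its own, without covariates, by edgeR 4.0.16 in R 4.3.3 (TMM scaling, filterByExpr, quasi-likelihood F test, two-sided), and averages and response differences in one edgeR fit over the 6 groups. P-values were adjusted by Benjamini-Hochberg over all genes tested, with a threshold of 0.1, the one the study used. SE is the size of the log2 fold change divided by the square root of the F statistic of the same test. The fits were tested on simulated data. Alternatives were DESeq2 1.42.0, RLE scaling, no filter on low counts, one fit over the 6 groups, leaving out each library in turn and leaving out the 5 libraries with over 5% of counts in Gm42418. Leaving out the 6 libraries with Ttr above 100 CPM was added after seeing the data. The 34 genes and the other gene lists were chosen with earlier results of these data known. Named with values were members called in any comparison and, for other roles and lists, those with the lowest p. Labels do not tie replicates to separate litters or cages, so p-values measure the spread between these libraries.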

Additional observations from a re-analysis of the deposited data

Results flagged for a closer look

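In each group of 4 to 10 libraries, the highest and lowest CPM of each of the 34 genes was checked for a gap to the others beyond Dixon's critical value. Of 170 groups checked 8 had such a library, a share close to the 1 in 20 groups or so that chance alone flags. Among naïve libraries, Slc1a3 was 546 CPM in exGF-P4 (the others of its group 499 to 504 CPM), Slc4a4 was 163 CPM in exGF-P1 (132 to 136 CPM), Gja1 was 253 CPM in CON-P1 (192 to 199 CPM) and Aldoc was 465.5 CPM in GF-P1 (518 to 527 CPM). After social interaction, Glul was 1514 CPM in CON-S3 (the others of its group 1024 to 1233 CPM), Kcnj10 was 133 CPM in exGF-S7 (51.8 to 81.1 CPM), Aldh1l1 was 63.9 CPM in exGF-S8 (42.04 to 51.1 CPM) and Gjb6 was 25.1 CPM in exGF-S4 (39.7 to 45.4 CPM). CON-P1, exGF-P1 and exGF-S7 are among the libraries rich in ribosomal RNA, and exGF-S4 and exGF-S7 among those rich in Ttr. Whether anything sets these libraries apart was not tested.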

How the results depend on the processing

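The counts of called members depended on the processing, and the counts over all genes are set beside them. Whether a change was particular to the members was not tested. In GF against CON (0 called), 3 were called by DESeq2, 2 with no filter on low counts and 1 without the Ttr-rich libraries. Over all genes 21 were called there, and 155, 205 and 9 in these fits. In exGF against CON (0), 1 was called with no filter and 1 without the Ttr-rich libraries. The counts over all genes were 15, and 84 and 13 in these fits. In exGF against GF (0), 2 were called by DESeq2 and 1 with no filter, beside 0, 72 and 80 over all genes. In CON-SI against CON (3), 0 were called without the libraries rich in ribosomal RNA, where calls over all genes fell from 566 to 26. In exGF-SI against exGF (5), 3 were called with no filter, 0 without the libraries rich in ribosomal RNA and 3 without the Ttr-rich ones. Calls over all genes were 1161 there, and 722, 155 and 1133 in these fits. In GF-SI against CON-SI (2), DESeq2 called 4 and the fit without the Ttr-rich libraries 0, beside 166, 521 and 72 over all genes. In exGF-SI against CON-SI (5), 2 were called without the Ttr-rich libraries, where calls over all genes fell from 195 to 93. In exGF-SI against GF-SI (6), DESeq2 called 13 and no filter left 1. Leaving out the libraries rich in ribosomal RNA gave 11 there, and leaving out the Ttr-rich ones 0. Over all genes 15 were called in this comparison, and 296, 3, 120 and 1 in these fits. In the response of GF minus CON (0), DESeq2 called 1, where calls over all genes rose from 15 to 495. In the SI average (11) and the germ-free-born average (2), leaving out the libraries rich in ribosomal RNA gave 7 and 1. Calls over all genes fell from 4294 to 3625 in the former and from 233 to 70 in the latter. In exGF minus GF averaged over naïve and SI (2), DESeq2 called 4 and no filter 0. Leaving out the libraries rich in ribosomal RNA or in Ttr gave 0 and 1 there. The counts over all genes were 8 in that average, and 53, 2, 0 and 19 in these fits.

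Leaving out 1 library gave 0 to 1 called members in GF against CON and in exGF against CON, 0 in exGF against GF, 0 to 4 in CON-SI against CON, 1 to 5 in GF-SI against GF, 0 to 6 in exGF-SI against exGF, 0 to 3 in GF-SI against CON-SI, 1 to 6 in exGF-SI against CON-SI and 0 to 11 in exGF-SI against GF-SI. It gave 0 to 1 in the response of GF minus CON, 0 in the other 2 responses, 8 to 11 in the SI average, 1 to 3 in the germ-free-born average and 0 to 2 in exGF minus GF. No called fold change reversed. Of 225 single-gene values under an alternative 51 missed the threshold, and of 1000 with 1 library left out 244 did. Leaving out the libraries rich in ribosomal RNA left 2 naïve libraries each in CON and exGF. The cause of the lost calls was not tested. No paired analysis was possible because the column numbers carry no replicate number of the labels.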
